A study of Homo sapiens with 15 samples.

Results

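The 9 genes described here are the BMP ligands BMP2, BMP4 and BMP7, the inhibitor-of-DNA-binding genes ID1, ID2, ID3 and ID4, and the homeobox genes MSX1 and MSX2. They were taken by symbol from the table of raw counts, where they are 9 of 28207 genes, and all 9 passed the filter on low counts that left 18760 genes to test. Counts came from RNA sequencing of NTERA2, a human embryonal carcinoma cell line derived from a testicular germ cell tumour and grown in medium with 10% serum. Each of 5 groups of 3 libraries received 1 siRNA, given 2 times over 7 days, and all groups share the cell line, the medium and the siRNA schedule. The control group received siControl. The other groups received siRNA against IGF2BP1, an RNA-binding protein that stabilises many transcripts, against SRF, a transcription factor of growth and cytoskeletal genes, against FOXM1, a transcription factor of the cell division programme, or against IQGAP3, a scaffold protein of proliferating cells. The series title places IQGAP3 under the regulation of IGF2BP1 in stem cell potential. The question put to the 9 genes was whether their levels differed from siControl after each knockdown, and between knockdowns. Separate cultures are not stated in the labels for the 3 libraries of a group, so the p-values speak only of how these libraries vary, and that variation may be technical.

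BMPs are secreted ligands of the TGF-beta superfamily. They bind a complex of type I and type II serine/threonine kinase receptors, which phosphorylates the receptor SMADs (SMAD1, SMAD5 and SMAD9), and these enter the nucleus with SMAD4. ID and MSX genes are among the most widely used readouts of this signal. ID proteins have a helix-loop-helix domain without a DNA-binding region and hold E proteins off DNA. MSX1 and MSX2 are homeodomain repressors of the limb, the skull and the dorsal neural tube. In human pluripotent cells, added BMP4 is known to drive cells towards trophoblast-like and amnion-like fates.

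MSX1 and MSX2 carry the 2 calls against siControl reported below, so the 250 bases before their start sites are shown. They are RefSeq sequences of GRCh38.p14, whereas the counts were made on GRCh37, and the table of promoters matched 7 of the 9 genes (BMP2 and BMP7 had no entry). The MSX1 stretch lies at chr4:4859415-4859664 and the MSX2 stretch at chr5:174724332-174724581, both on the plus strand. Capitals mark the CCAAT box, read as CCAAT or, on the other strand, ATTGG.
MSX1: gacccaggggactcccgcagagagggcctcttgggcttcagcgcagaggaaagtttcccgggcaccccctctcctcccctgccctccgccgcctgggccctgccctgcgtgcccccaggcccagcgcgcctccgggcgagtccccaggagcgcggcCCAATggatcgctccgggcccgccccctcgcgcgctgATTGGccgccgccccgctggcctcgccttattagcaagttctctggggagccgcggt
MSX2: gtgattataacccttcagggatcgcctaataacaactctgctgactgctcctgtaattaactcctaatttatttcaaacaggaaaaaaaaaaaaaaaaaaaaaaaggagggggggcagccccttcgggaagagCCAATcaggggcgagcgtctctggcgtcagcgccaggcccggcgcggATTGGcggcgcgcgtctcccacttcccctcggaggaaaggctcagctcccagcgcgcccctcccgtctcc
Each of the 2 stretches held 2 matches, and over 300 bases (250 before and 50 after the start) 34.6% of 35116 RefSeq promoters held at least 1. Over 300 bases ID2 held 3 matches, ID1 and ID4 held 1 each, and ID3 and BMP4 held 0, so the box was not particular to the MSX genes. In the same 300 bases the SMAD element GTCT, or AGAC on the other strand, had 0 matches in MSX1 and 3 in MSX2, and 84% of all promoters held it. The GC-rich element GGCGCC, its own reverse complement, had 0 matches in both, and 19.2% of all promoters held it. These matches describe letters only. The data hold no measure of binding.

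Depth and the standing of single libraries come before the results. Library totals ran from 35275570 to 44996064 counts, and values below are CPM, that is counts scaled to a common TMM-adjusted library total, given in the order of the columns within each group. CPM is not divided by gene length, so levels are compared between groups. Between genes, CPM served only to pick genes by mean CPM and to sum markers, with no correction for length. Each siRNA target fell in its own group, to 20.8% of siControl for IGF2BP1, 7.51% for SRF, 20.6% for FOXM1 and 48.0% for IQGAP3 (edgeR quasi-likelihood test, adjusted p 0.0138 or lower). IQGAP3 mRNA was also lower than in siControl in the other knockdowns, at 17.9% of siControl in siIGF2BP1, 19.7% in siSRF and 6.70% in siFOXM1 (adjusted p 0.00137, 0.00179 and 1.05e-04), below its 48% in siIQGAP3, a difference between knockdowns that was not tested. SRF stood at 7.97% in siIGF2BP1, and FOXM1 at 30.0% in siIGF2BP1 and 29.3% in siSRF (adjusted p 3.9e-07, 0.00773 and 0.00569). In 4 groups the third library stood apart from the first and second. The chi-square per gene between the first and second libraries was 16.9 in siControl and 2.28 to 4.48 in siIGF2BP1, siSRF and siFOXM1, whereas against the third it was 124 to 558. Within siIQGAP3 all pairs of libraries had values of 1.82 to 4.4. The first principal component took up 62.8% of the variance, and on it the third siControl library (131) lay near the siIQGAP3 libraries (157 each), whereas all others lay between -85 and -10.3.

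In summed CPM the third siControl library lay nearer to siIQGAP3 than the other siControl libraries did on 4 of 5 marker lists. These were the embryonal carcinoma, fibroblast, neural, and trophoblast and amnion lists. The summed CPM of 10 embryonal carcinoma markers was 2226, 1770 and 4419 in the siControl libraries and 4597 to 4770 in siIQGAP3, and it was 411 to 513 in siIGF2BP1, 442 to 511 in siSRF and 288 to 1308 in siFOXM1. None of these 10 markers was at 0 in any library. POU5F1, a core pluripotency factor, was 906, 874 and 711 CPM in the siControl libraries, and no library of another group exceeded 84.4 CPM. NANOG, another, was 80.0, 100 and 69.5 CPM in siControl and 8.08 CPM or less in every library of another group. On both genes the third siControl library stood with its own group, and siIQGAP3 was far below siControl. The other listed markers were higher in every siIQGAP3 library than in the first and second siControl libraries. The summed CPM of 8 fibroblast markers was 7584, 8861 and 2019 in siControl, 2811 to 2848 in siIQGAP3 and 4536 to 10950 over the other groups. Decorin (DCN) stood at 237 and 275 CPM in the first and second siControl libraries, at 0 in the third, and at 0.202 to 0.548 CPM in siIQGAP3. PDGFRB and THY1 of the same list went the other way. PDGFRB stood at 25.7, 22.9 and 67.0 CPM in siControl and at 105.7 to 113.5 CPM in siIQGAP3. THY1 stood at 80.6, 91.9 and 235 CPM in siControl and at 253 to 260 CPM in siIQGAP3. Sums over 8 neural markers were 467, 416.5 and 653 CPM in siControl, 696 to 705 in siIQGAP3 and 235 to 491.5 over the other groups. PAX6, NEUROD1 and STMN2 of this list were lower in siIQGAP3 than in the first and second siControl libraries. PAX6 stood at 33.8, 42.25 and 0.0213 CPM in siControl and at 3.62 to 3.93 CPM in siIQGAP3. Sums over 7 trophoblast and amnion markers were 93.9, 82.1 and 191 CPM in siControl, 153 to 160 in siIQGAP3 and 144 to 228 over the other groups. IGFBP3 was the largest term in every library, and KRT7 was higher in every siIQGAP3 library than in any siControl library. CDX2, VTCN1 and GABRP were lower there. CDX2 stood at 13.7, 13.9 and 39.8 CPM in siControl and at 0.289 to 0.4955 CPM in siIQGAP3. VTCN1 stood at 3.72, 2.2 and 10.8 CPM in siControl and at 0.404 to 0.493 CPM in siIQGAP3. Sums over 8 blood and endothelial markers were 23.2, 16.1 and 32.2 CPM in siControl, 12.6 to 13.8 in siIQGAP3 and 4.20 to 11.1 over the other groups. The leukocyte marker PTPRC was at 0.150 CPM or less in every library. The part of these differences in the results below was not tested. In bulk RNA, fewer cells of a type and less RNA per cell cannot be told apart.

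MSX1 and MSX2 were the genes of the 9 whose levels fell after IQGAP3 knockdown. MSX1 stood at 33.7, 36.7 and 32.8 CPM in the siControl libraries and at 4.49, 5.17 and 5.37 CPM in the siIQGAP3 libraries. Every siIQGAP3 library was below every siControl library, and in MSX1 the third siControl library was close to its group. The fall was 6.86-fold, a log2 difference of -2.78 ± 0.26 (SE) with an adjusted p of 4.39e-05 by the edgeR quasi-likelihood test. MSX2 stood at 121, 131 and 48.7 CPM in siControl and at 23.2, 25.0 and 24.2 CPM in siIQGAP3. Its groups did not overlap either, but the third siControl library lay nearer to siIQGAP3 than the first and second did. The fall was 4.16-fold, a log2 difference of -2.06 ± 0.48 (SE) with an adjusted p of 0.00678. Of the 9 genes, 2 passed the test against siControl, both lower, where 32.5% of all tested genes passed in either direction and 21.7% passed as lower. With the third siControl library as the only control, and its spread taken from the other groups, MSX1 was still lower (log2 difference -2.71, adjusted p 6.04e-04, 10.8% of all genes called), whereas MSX2 no longer passed (-1.01, adjusted p 0.308).

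In the other knockdowns, where IQGAP3 mRNA had also fallen, the mean MSX levels were above those of siControl without passing the test. MSX1 stood at 57.1, 58.1 and 45.5 CPM with siIGF2BP1, at 64.8, 68.9 and 30.5 CPM with siSRF, and at 53.1, 52.3 and 42.95 CPM with siFOXM1. The siIGF2BP1 and siFOXM1 libraries were all above the siControl libraries, and the third siSRF library was below them. Log2 differences of MSX1 from siControl were 0.64 ± 0.24, 0.67 ± 0.24 and 0.52 ± 0.24 (SE), with adjusted p of 0.238, 0.218 and 0.402. MSX2 stood at 265, 285 and 169 CPM with siIGF2BP1, at 384, 388 and 111 CPM with siSRF, and at 208, 220 and 110 CPM with siFOXM1. Of these, the siIGF2BP1 libraries were all above siControl, and the third libraries of siSRF and siFOXM1 fell within its range. Log2 differences of MSX2 were 1.26 ± 0.46, 1.55 ± 0.47 and 0.84 ± 0.46 (SE), with adjusted p of 0.224, 0.132 and 0.515. Without the third siSRF library both genes passed as higher in siSRF (log2 differences 0.96 and 1.95, adjusted p 0.0101 and 0.0271), where 2.42% of all genes passed. Against the third siControl library alone, log2 differences of MSX1 were 0.72, 0.75 and 0.62 with siIGF2BP1, siSRF and siFOXM1. Those of MSX2 were 2.31, 2.60 and 1.90.

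**Figure D1:**
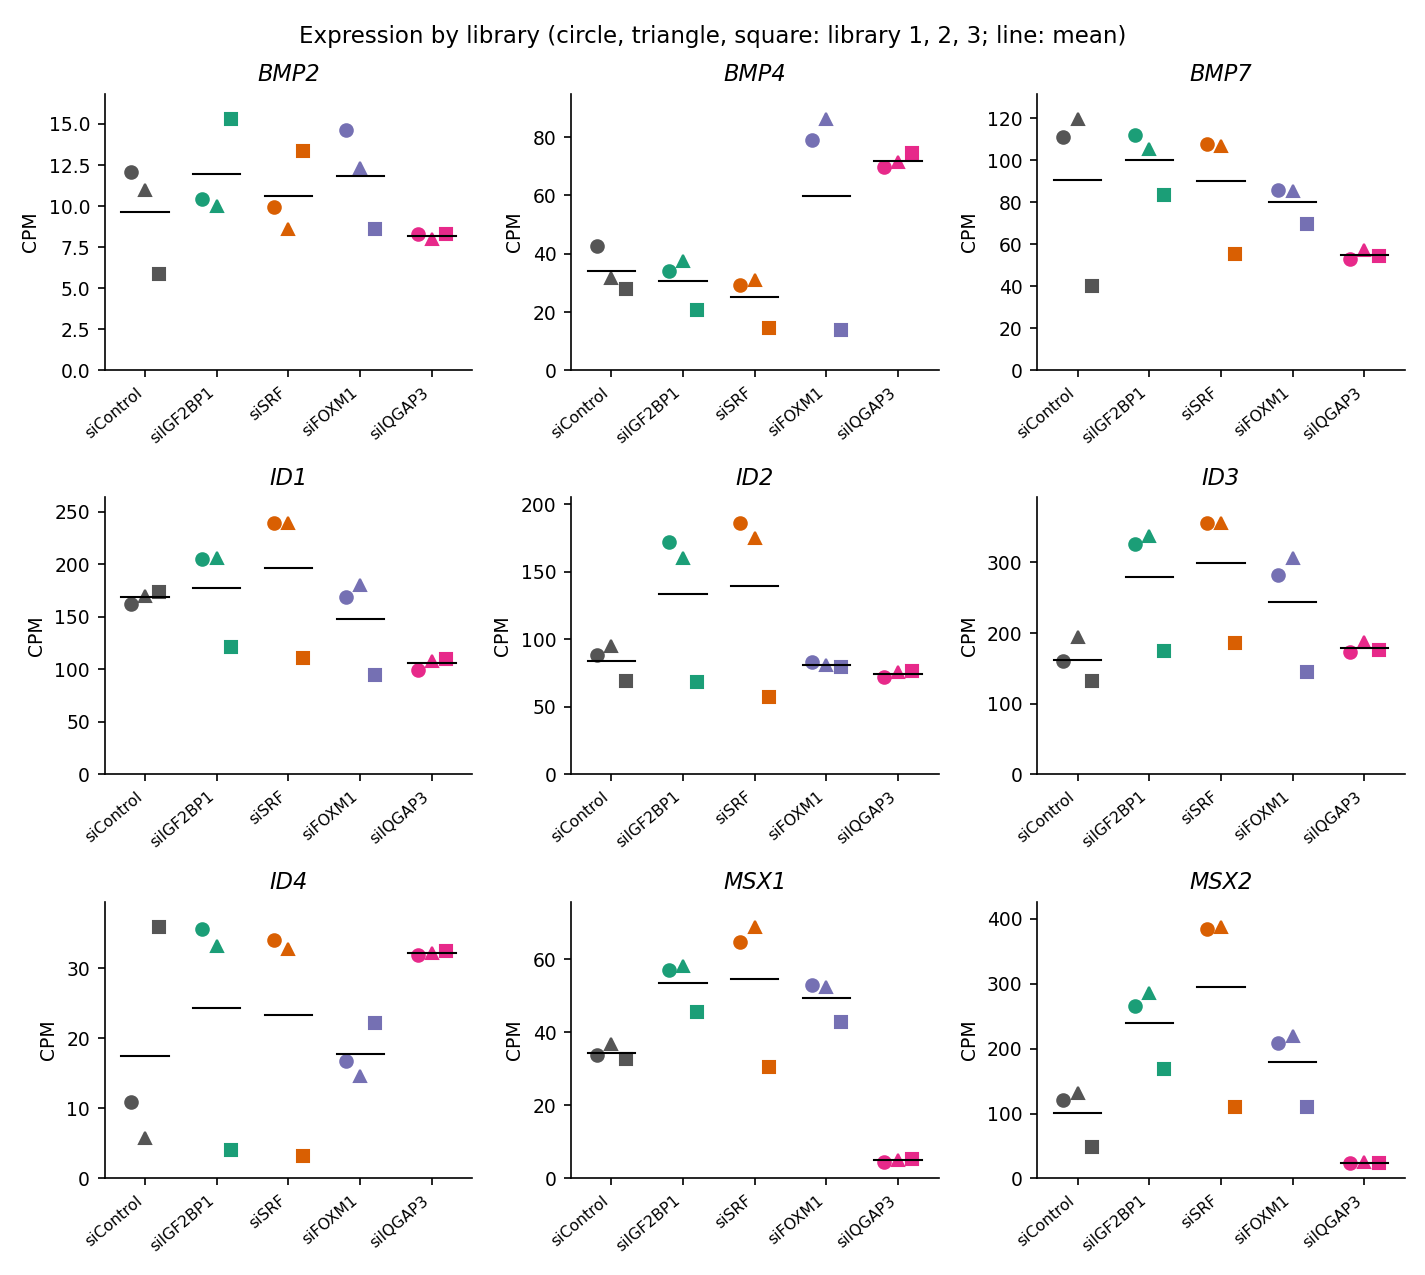
Level of each of the 9 genes in CPM (linear axis from 0) in every library, by siRNA group, with circles, triangles and squares for the first, the second and the third library and the mean of each group as a line. The 3 siIQGAP3 libraries lie close together in every panel, and for MSX1 and MSX2 they lie below every other library.

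The order of the group means was the same for both MSX genes. MSX1 averaged 54.7 ± 21.1 CPM (SD, n = 3) in siSRF, 53.6 ± 7.00 in siIGF2BP1, 49.4 ± 5.64 in siFOXM1, 34.4 ± 2.08 in siControl and 5.01 ± 0.458 in siIQGAP3. MSX2 averaged 294 ± 159 CPM in siSRF, 240.0 ± 61.9 in siIGF2BP1, 179 ± 60.2 in siFOXM1, 100.4 ± 45.03 in siControl and 24.1 ± 0.884 in siIQGAP3. In both, the step from siControl to siIQGAP3 was the only one between neighbours that passed the test. Over the 15 libraries the log2 CPM of MSX1 and MSX2 correlated with r = 0.937, and over the 12 libraries without siIQGAP3 with r = 0.908. These points share groups and the shift of the third libraries, so the values are a description.

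Among the ligands, none passed the test against siControl in any knockdown. BMP4, the ligand most used to start BMP signalling in pluripotent cells, stood at 42.6, 31.7 and 28.1 CPM in siControl and at 69.7, 71.4 and 74.4 CPM in siIQGAP3. All siIQGAP3 libraries were above all siControl libraries, at 2.10-fold, but the log2 difference of 1.07 ± 0.51 (SE) had an adjusted p of 0.123. With siFOXM1 BMP4 stood at 78.9, 86.3 and 13.8 CPM, so the third library was far below the first and second. It was also below every siControl library, and the log2 difference of 0.81 ± 0.51 had an adjusted p of 0.596. With siIGF2BP1 BMP4 stood at 34.0, 37.6 and 20.6 CPM, and with siSRF at 29.4, 31.1 and 14.7 CPM. Both groups overlapped siControl (log2 differences -0.15 and -0.45, adjusted p 0.917 and 0.764). BMP4 averaged 71.8 ± 2.38 CPM in siIQGAP3, 59.7 ± 39.9 in siFOXM1, 34.1 ± 7.57 in siControl, 30.7 ± 8.94 in siIGF2BP1 and 25.0 ± 9.03 in siSRF (SD, n = 3), and no step between neighbours passed.

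BMP7, a ligand that can pair with BMP2 or BMP4, stood at 111, 120 and 40.2 CPM in siControl and at 53.1, 57.1 and 54.4 CPM in siIQGAP3. The siIQGAP3 libraries lay between the third siControl library and the first and second. The log2 difference was -0.72 ± 0.34 (SE, adjusted p 0.124), and with the third siControl library as the only control it had the opposite sign (0.45, adjusted p 0.445). Without the third siControl library BMP7 passed as lower (-1.08, adjusted p 0.00238). In the other groups BMP7 stood at 112, 105 and 83.4 CPM with siIGF2BP1, at 108, 107 and 55.3 CPM with siSRF, and at 85.7, 85.3 and 69.6 CPM with siFOXM1. All of these lay within the range of siControl (adjusted p 0.871, 0.995 and 0.925). Against the third siControl library alone, the log2 differences of BMP7 in these groups were 1.33, 1.17 and 1.02.

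BMP2, a ligand of the same receptors as BMP4, stood at 12.1, 10.97 and 5.87 CPM in siControl and at 8.30, 7.97 and 8.31 CPM in siIQGAP3, within the siControl range. It stood at 10.4, 10.0 and 15.3 CPM with siIGF2BP1, at 9.93, 8.63 and 13.4 CPM with siSRF, and at 14.6, 12.3 and 8.59 CPM with siFOXM1. Group means ran from 8.19 CPM in siIQGAP3 to 11.9 CPM in siIGF2BP1, and adjusted p against siControl from 0.570 to 0.883. Against the third siControl library alone, log2 differences of BMP2 were 1.03, 0.87 and 1.03 with siIGF2BP1, siSRF and siFOXM1, and 0.485 with siIQGAP3.

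Of the ID genes only ID1 had all siIQGAP3 libraries below all siControl libraries, and its difference did not pass the test. Over all tested genes, 48.3% had siIQGAP3 and siControl libraries that did not overlap, in either direction. ID1 stood at 162, 170 and 174 CPM in siControl and at 99.9, 108 and 110 CPM in siIQGAP3. The groups did not overlap, and the third siControl library was close to its group, but the log2 difference of -0.67 ± 0.30 (SE) had an adjusted p of 0.107. ID1 stood at 205, 206 and 121 CPM with siIGF2BP1, at 239, 240 and 111 CPM with siSRF, and at 169, 181 and 94.6 CPM with siFOXM1. In each of these groups the siControl values lay between the third library and at least 1 of the others, and adjusted p was 0.933, 0.813 and 0.898.

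ID2 and ID3 were higher in the first and second libraries of siIGF2BP1 and siSRF than in any siControl library, but not in the third. ID2 stood at 88.0, 95.4 and 69.4 CPM in siControl, at 172, 160 and 68.7 CPM with siIGF2BP1 and at 186, 175 and 57.2 CPM with siSRF. The third libraries of both knockdowns were below all siControl libraries, and the log2 differences of 0.66 ± 0.38 and 0.73 ± 0.38 (SE) had adjusted p of 0.438 and 0.421. ID2 stood at 82.9, 80.7 and 79.4 CPM with siFOXM1 and at 71.8, 75.5 and 76.3 CPM with siIQGAP3, within the siControl range. ID3 stood at 160, 195 and 132 CPM in siControl, at 326, 338 and 174 CPM with siIGF2BP1 and at 355, 356 and 187 CPM with siSRF. The third library of each knockdown fell within the siControl range, and the log2 differences of 0.78 ± 0.33 and 0.88 ± 0.33 had adjusted p of 0.283 and 0.233. ID3 stood at 283, 307 and 145 CPM with siFOXM1 (log2 difference 0.59, adjusted p 0.522) and at 173, 188 and 176 CPM with siIQGAP3 (0.14, adjusted p 0.761).

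ID4, like BMP4 in siFOXM1, stood far apart in the third libraries. It stood at 10.9, 5.76 and 35.96 CPM in siControl, and at 32.0, 32.3 and 32.5 CPM in siIQGAP3. The siIQGAP3 libraries lay just below the third siControl library and above the others (log2 difference 0.88 ± 0.86 SE, adjusted p 0.449). With siIGF2BP1 ID4 stood at 35.6, 33.2 and 4.05 CPM, with siSRF at 34.1, 32.8 and 3.17 CPM, and with siFOXM1 at 16.7, 14.6 and 22.1 CPM. The third library was thus 4.32 times the mean of the first and second in siControl, and 0.118 and 0.0948 times that mean in siIGF2BP1 and siSRF. Adjusted p in these knockdowns was 0.837, 0.885 and 0.999.

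**Figure D2:**
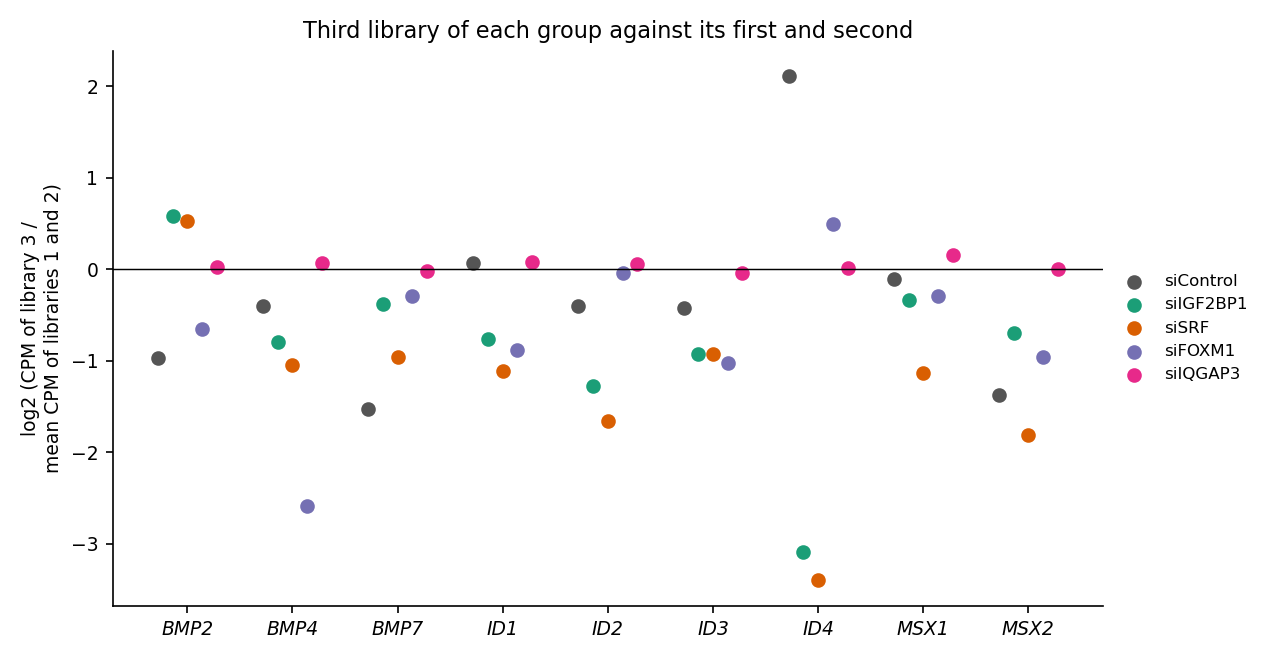
Log2 ratio of the third library to the mean of the first and second, for each of the 9 genes and each group. ID4 in siIGF2BP1 and siSRF (0.118 and 0.0948 times) and BMP4 in siFOXM1 (0.166 times) are the lowest points, ID4 in siControl (4.32 times) is the highest, and the siIQGAP3 points lie near 0.

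In 4 groups the third library lay outside the range of the others for all 9 genes, as it did for most of all tested genes. It was below both others for 7 of 9 genes in siControl and for 8 of 9 in each of siIGF2BP1, siSRF and siFOXM1, where it was below both for 44.5%, 46.1%, 46.4% and 48.8% of all tested genes. It was above both for the rest, which were ID1 and ID4 in siControl, BMP2 in siIGF2BP1 and in siSRF, and ID4 in siFOXM1. Of all tested genes, 49.1%, 44.4%, 46.7% and 42.6% were above both in siControl, siIGF2BP1, siSRF and siFOXM1. In siIQGAP3 it was above both for 6 genes, between them for 3 and below both for 0 (31.5% of all tested genes above both and 27.8% below both).

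Counted over the 9 genes, 0 passed against siControl with siIGF2BP1 by edgeR (3 at an unadjusted p under 0.05, 0 by DESeq2), where 1.62% of all genes passed by edgeR and 5.52% by DESeq2. With siSRF 0 passed by edgeR (3 unadjusted, 1 by DESeq2), where 1.57% of all genes passed by edgeR and 5.6% by DESeq2. With siFOXM1 0 passed by edgeR (0 unadjusted, 0 by DESeq2), where 1.12% of all genes passed by edgeR and 4.38% by DESeq2. The 3 unadjusted genes were ID3, MSX1 and MSX2 in both siIGF2BP1 and siSRF, where 15.1% and 14.5% of all genes had an unadjusted p under 0.05. For siFOXM1 that share is not given, so its count is not read as a result. The libraries of siIGF2BP1 did not overlap siControl for 2 genes, MSX1 and MSX2, both higher (7.74% of all genes), and those of siFOXM1 for 1, MSX1 (7.55%). With siIQGAP3 they did not overlap for 4 genes (48.3% of all genes), of which BMP4 was higher and ID1, MSX1 and MSX2 were lower. The median log2 difference of the 9 genes was 0.47 with siIGF2BP1, 0.41 with siSRF, 0.30 with siFOXM1 and -0.23 with siIQGAP3, beside medians over all genes of 0.01, 0.01, -0.02 and -0.06. The 4 comparisons share the siControl libraries.

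**Figure D3:**
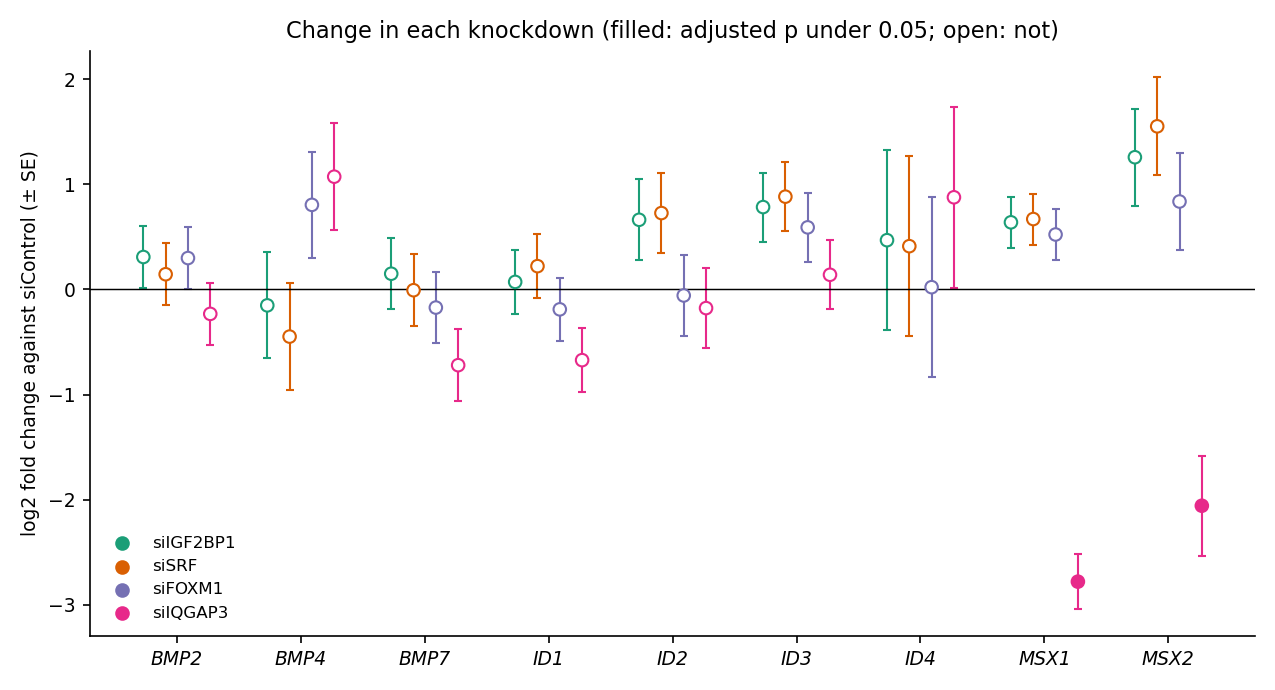
Log2 difference from siControl with its standard error for the 9 genes in each knockdown, from the edgeR fit over 15 libraries. Filled points passed an adjusted p of 0.05, and these are MSX1 (-2.78) and MSX2 (-2.06) in siIQGAP3.

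The knockdowns were also compared with each other. Between siIGF2BP1, siSRF and siFOXM1, none of the 9 genes passed in any of the 3 pairs by edgeR or by DESeq2. The pairs were siIGF2BP1 against siSRF, siIGF2BP1 against siFOXM1 and siSRF against siFOXM1. In these, 0.00533%, 0.0107% and 0.00533% of all genes passed by edgeR, and 0.00816%, 0.351% and 0.26% by DESeq2. At an unadjusted p under 0.05 the counts were 0, 0 and 1, the 1 being BMP4 in siSRF against siFOXM1 (log2 difference -1.25). The share of all genes at that level is not given for these pairs, so the counts are not read as a result. MSX1 and MSX2 were higher in each of these knockdowns than in siIQGAP3. For MSX1 the log2 differences were 3.42 ± 0.27, 3.45 ± 0.27 and 3.30 ± 0.27 (SE) in siIGF2BP1, siSRF and siFOXM1, with adjusted p of 1.65e-05, 2.57e-05 and 2.72e-05. For MSX2 they were 3.32 ± 0.50, 3.61 ± 0.51 and 2.89 ± 0.49, with adjusted p of 5.54e-04, 4.79e-04 and 0.00136. In siSRF against siIQGAP3, ID1 also passed as higher (0.90 ± 0.31, adjusted p 0.032) and BMP4 as lower (-1.52 ± 0.52, adjusted p 0.0312). Leaving out 1 library at a time, ID1 lost its call in 5 of 6 refits (adjusted p up to 0.114) and BMP4 in 6 of 6 (up to 0.0834). The counts were thus 2, 4 and 2 of 9 genes, where 49.9%, 42.8% and 36.8% of all genes passed. Without the third siIGF2BP1 library the first count was 5 (46.7% of all genes), and without the third siSRF library the second was 6 (50.7%). Without any other library of siSRF or siIQGAP3 the second was 2 (29.7% to 30.1%). In siSRF against siFOXM1 1 gene passed without the third siFOXM1 library (0.92% of all genes).

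Other genes of the pathway came from 7 lists of 62 genes, of which 61 were in the table and 58 were tested. After IQGAP3 knockdown 10 of the 58 were higher and 20 lower, or 51.7% beside 32.5% of all genes, with a median log2 difference of -0.18 beside -0.06. With the third siControl library as the only control 10 passed, all lower, and 7 of these were among the 30, where 7.2% of all genes passed as lower. Leaving out 1 library at a time gave 42 calls without the third siControl library (56.5% of all genes), 19 and 18 without the first and second (19.4% and 18.5%), and 17 or 18 without a siIQGAP3 library (20% to 20.5%). The value in each siControl library is therefore given below for the genes named by smallest p.

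Among 8 tested ligands 1 rose and 2 fell in siIQGAP3. GDF6, a ligand of eye and joint development, stood at 3.77, 4.26 and 3.33 CPM in siControl and at 15.3, 15.3 and 16.9 CPM in siIQGAP3 (log2 difference 2.07, adjusted p 0.00402). BMP8B stood at 12.7, 14.3 and 7.85 CPM in siControl and at 1.34, 0.924 and 1.18 CPM in siIQGAP3 (-3.33, adjusted p 3.68e-05). The libraries of siControl and siIQGAP3 did not overlap for either gene. BMP5 had 2381, 2306 and 16 counts in siControl and 2, 5 and 3 in siIQGAP3 (adjusted p 0.00162), so the third siControl library was close to the siIQGAP3 level.

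Among 11 tested receptors and co-receptors 4 rose and 2 fell. Endoglin (ENG), a co-receptor, stood at 92.7, 118 and 42.1 CPM in siControl and at 25.2, 27.6 and 25.7 CPM in siIQGAP3 (-1.69, adjusted p 0.00124). Its partner receptor ACVRL1 stood at 0.866, 0.869 and 11.3 CPM in siControl and at 0.466, 0.635 and 0.661 CPM in siIQGAP3, with a log2 difference of -2.88 (adjusted p 0.0206). Without the third siControl library the log2 difference was -0.56 (adjusted p 0.206), and without 1 siIQGAP3 library the adjusted p was 0.0625 to 0.0753. NEO1, a receptor of the RGM co-receptors, stood at 85.9, 92.1 and 121 CPM in siControl and at 165, 155 and 159 CPM in siIQGAP3 (0.68, adjusted p 0.00222). The type II receptor ACVR2A stood at 8.87, 7.90 and 14.75 CPM in siControl and at 18.6, 17.55 and 20.3 CPM in siIQGAP3. Its log2 difference was 0.84 (adjusted p 0.0146), and 0.355 against the third siControl library alone. The call was lost in 3 of 6 refits without 1 library (without the first or second siControl or the third siIQGAP3 library, adjusted p up to 0.068). All 4 named genes had groups that did not overlap.

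Among the SMADs 1 of 4 passed. SMAD9 stood at 29.5, 29.6 and 4.76 CPM in siControl and at 5.04, 5.40 and 4.79 CPM in siIQGAP3 (-2.07, adjusted p 0.00819), and against the third siControl library alone the log2 difference was 0.10. Of 7 intracellular inhibitors 1 rose, the pseudoreceptor BAMBI, at 56.3, 48.5 and 112 CPM in siControl and 124, 135 and 134 CPM in siIQGAP3 (0.86, adjusted p 0.0338). The BAMBI call was lost in 5 of 6 refits without 1 library (adjusted p up to 0.136), all but the one without the third siControl library. The SMAD9 and BAMBI values of the third siControl library thus lay close to those of siIQGAP3.

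Of 15 secreted antagonists 3 rose and 6 fell. Follistatin (FST), which binds activins and BMPs, stood at 6.60, 4.05 and 16.2 CPM in siControl and at 61.1, 70.8 and 62.9 CPM in siIQGAP3 (2.86, adjusted p 0.00221). Chordin (CHRD), which keeps BMPs from their receptors, stood at 18.1, 18.9 and 10.5 CPM in siControl and at 4.36, 5.66 and 4.21 CPM in siIQGAP3 (-1.74, adjusted p 0.00146). Both had groups that did not overlap, and against the third siControl library alone neither passed (adjusted p 0.0664 and 0.0562). DAND5 had 607, 727 and 3 counts in siControl and 1, 2 and 1 in siIQGAP3 (adjusted p 0.00179). For DAND5 the third siControl library was near the siIQGAP3 level.

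The other BMP targets were the list with the largest share of calls in siIQGAP3, with 1 higher and 7 lower of 10 tested and a median log2 difference of -1.82. TFAP2A, a transcription factor of surface ectoderm and neural crest, stood at 181, 206 and 30.3 CPM in siControl and at 4.41, 5.34 and 5.59 CPM in siIQGAP3 (-4.77, adjusted p 1.43e-04). The homeobox gene DLX2 stood at 53.5, 56.9 and 33.8 CPM in siControl and at 14.3, 14.6 and 13.6 CPM in siIQGAP3 (-1.76, adjusted p 9.25e-05). Its relative DLX3 stood at 66.1, 77.0 and 6.42 CPM in siControl and at 1.37, 1.44 and 1.24 CPM in siIQGAP3 (-5.20, adjusted p 4.11e-04). GATA2, a zinc-finger factor of blood and trophoblast, stood at 36.2, 34.4 and 30.4 CPM in siControl and at 9.15, 8.66 and 9.55 CPM in siIQGAP3 (-1.88, adjusted p 0.0017). As with MSX1, these 4 genes were also lower against the third siControl library alone, with log2 differences of -2.57, -1.25, -2.24 and -1.73 (adjusted p 3.69e-05, 8.78e-04, 0.00107 and 0.0318). The other 3 genes of the list that were lower did not pass there, with -0.33 for DLX5, -0.91 for HAND1 and -1.80 for TBX20 (adjusted p 0.42, 0.571 and 0.284).

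Of the 3 E proteins that ID proteins bind, TCF12 and TCF4 passed as lower in siIQGAP3. TCF12 stood at 289, 287 and 83.1 CPM in siControl and at 107, 104 and 109 CPM in siIQGAP3 (-1.04, adjusted p 0.0326). TCF4 stood at 138, 138 and 25.5 CPM in siControl and at 40.2, 37.8 and 38.6 CPM in siIQGAP3 (-1.37, adjusted p 0.038). In both the siIQGAP3 values lay above the third siControl library, and the calls were lost in 5 of 6 refits without 1 library (adjusted p up to 0.143 and 0.154), all but the one without the third siControl library.

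**Figure D4:**
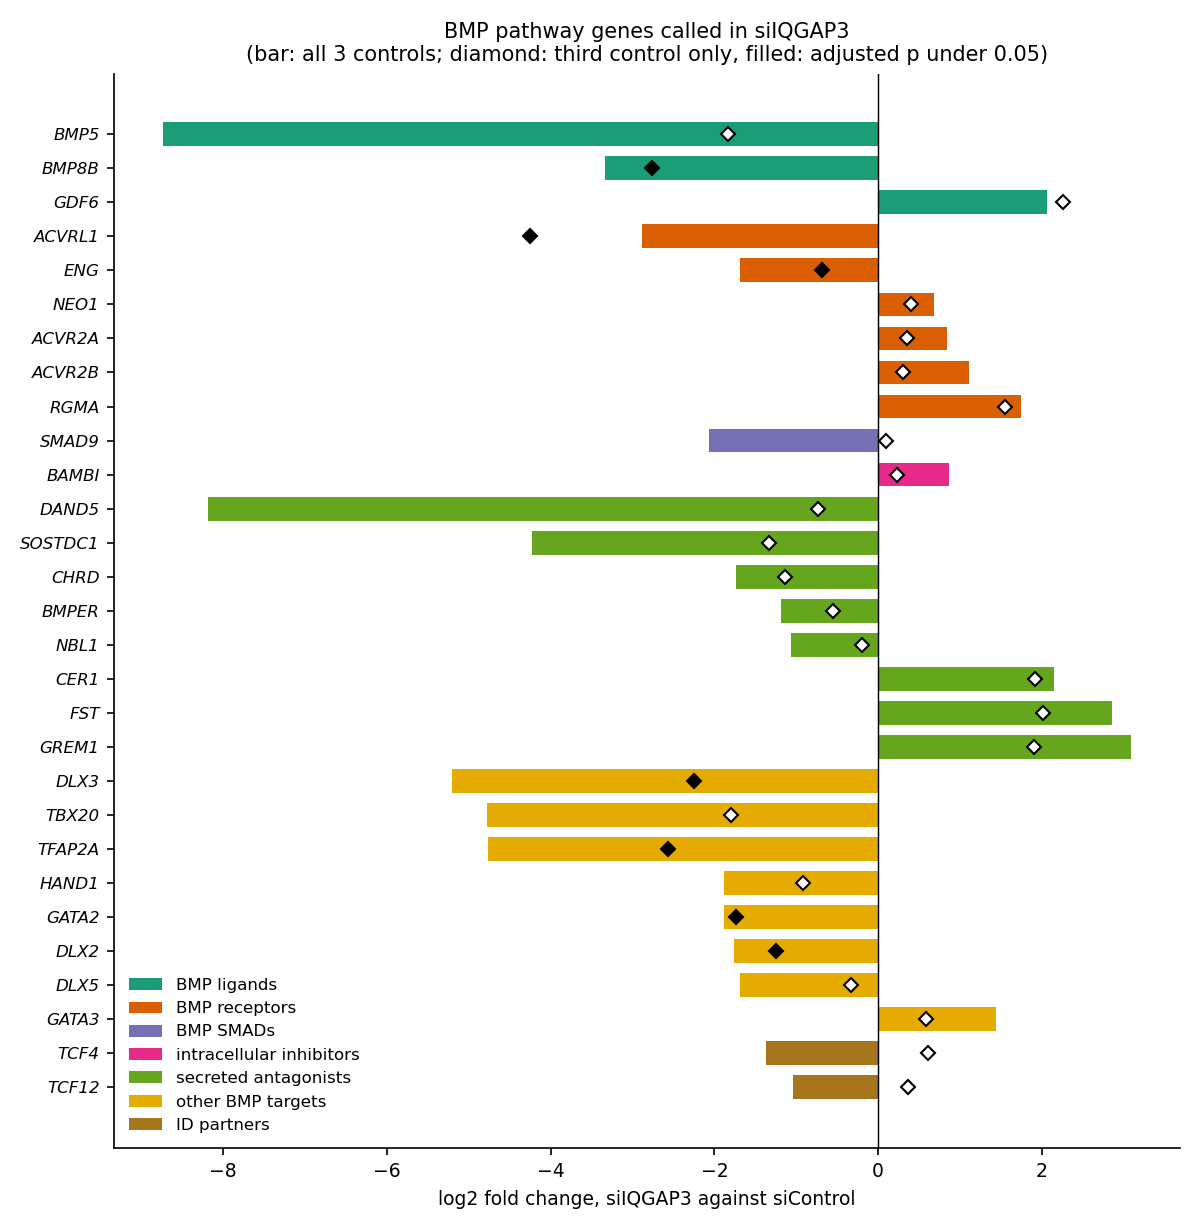
Log2 difference of siIQGAP3 from siControl for called genes of the 7 pathway lists, with bars for all 3 siControl libraries and diamonds for the third alone (filled where the adjusted p was under 0.05). Of the diamonds 7 are filled, and the bars of BMP5 and DAND5 are fitted from siIQGAP3 libraries with 1 to 5 counts, so their length depends on the fit.

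In the other knockdowns 3 of 58 pathway genes passed with siIGF2BP1 (5.17%, beside 1.62% of all genes), 2 with siSRF (3.45%, beside 1.57%) and 1 with siFOXM1 (1.72%, beside 1.12%). BMPER, a secreted modulator of BMPs, stood at 6.52, 5.21 and 3.22 CPM in siControl, at 15.8, 17.5 and 22.2 CPM with siIGF2BP1 and at 26.8, 26.3 and 9.18 CPM with siSRF. Its groups did not overlap siControl, with log2 differences of 1.89 and 2.06 (adjusted p 0.022 and 0.0134). SMAD7, an inhibitory SMAD induced by the pathway, stood at 33.6, 27.2 and 66.3 CPM in siControl and at 15.3, 15.1 and 19.3 CPM with siIGF2BP1 (-1.36, adjusted p 0.0352). HAND1, a transcription factor of heart and extra-embryonic mesoderm, stood at 102, 60.0 and 33.3 CPM in siControl and at 7.20, 8.13 and 5.66 CPM with siFOXM1 (-3.22, adjusted p 0.0422). CER1, an antagonist of BMP and Nodal, was called lower with siIGF2BP1 and siSRF (adjusted p 0.0454 and 0.0455) at 0.136 to 0.382 CPM in siControl and 0.0252 CPM or less in both knockdowns. Each of these calls was lost in 2 or more of 6 refits without 1 library. With siIGF2BP1 0 pathway genes passed without any 1 of its libraries, where 0.351%, 0.399% and 1% of all genes passed. Without the third siControl library the counts were 3, 8 and 9, where 2.74%, 6.71% and 8.16% of all genes passed. Without the first or second siSRF library the count was 0 (0.545% and 0.54% of all genes). Without the first or second siFOXM1 library it was also 0 (0.357% and 0.372%), and without the third siFOXM1 library 2 passed (1.36%).

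For the lists with no call, values follow for the genes with the highest mean CPM. Values also follow for genes of these lists that lay farther from siControl, chosen after their values were seen. None of these differences passed the test. GDF6 had log2 differences of 1.35, 1.44 and 1.69 with siIGF2BP1, siSRF and siFOXM1, with all libraries above siControl and adjusted p of 0.153, 0.121 and 0.0858, and BMP5 of 0.24, -0.38 and 0.14. Among the receptors, NEO1 differed by 0.04, 0.18 and 0.07 and the type II receptor BMPR2 by 0.04, 0.21 and -0.04. ACVRL1 lay farther away, at -1.95, -1.87 and -1.55 (adjusted p 0.275, 0.303 and 0.467), and so did the type II receptor ACVR2B, at -1.04, -0.88 and -0.60 (adjusted p 0.206, 0.289 and 0.581). Both overlapped siControl. Among the SMADs, SMAD5 differed by -0.07, -0.01 and -0.09 and SMAD4 by -0.08, -0.12 and -0.05, and SMAD9 by 0.56, 0.56 and 0.33, with all siIGF2BP1 libraries above siControl (adjusted p 0.616, 0.66 and 0.881). The E protein TCF3 differed by -0.05, -0.15 and -0.19 and TCF12 by 0.07, -0.01 and -0.15.

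Of the targets, TFAP2A differed by 0.00 and -0.29 with siIGF2BP1 and siSRF. ZNF423, a zinc-finger partner of SMADs, was below siControl in all libraries of both (-1.04 and -0.98, adjusted p 0.234 and 0.266), and so was HAND1 (-2.49 and -2.34, adjusted p 0.0895 and 0.101). The transcription factor ATOH8 was above siControl in all libraries of the 3 knockdowns (1.60 with siSRF and 2.38 with siFOXM1, adjusted p 0.154 and 0.0509, and adjusted p 0.183 with siIGF2BP1). Of the inhibitors, SKI differed by -0.13 and -0.18 with siSRF and siFOXM1, and BAMBI by 0.48 and 0.54. SMAD7 lay farther away, below siControl in all libraries of both (-1.22 and -0.77, edgeR adjusted p 0.0523 and 0.252). With siFOXM1 the antagonists FSTL1 and TWSG1 differed by -0.10 and 0.22, whereas CER1 was below siControl in all libraries (-3.01, adjusted p 0.103) and BMPER above it (1.32, adjusted p 0.112).

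For each of the 9 genes, the genes with the most similar pattern were those with the highest Pearson correlation of log2 CPM over the 15 libraries, among 12375 genes with a mean of at least 5 CPM. For MSX1 these were IFT46 (r = 0.988) and TBX3 (0.985), and for MSX2 ACOT13 (0.988) and CRELD2 (0.987). TBX3, a T-box transcription factor, averaged 78.7 ± 5.93 CPM (SD, n = 3) in siControl and 16.5 ± 0.164 in siIQGAP3. For the ligands they were P3H2 (0.943) and RAB5B (0.924) for BMP2, BRICD5 (0.969) and IGFBP2 (0.957) for BMP4, and CNNM3 (0.995) and UQCRFS1 (0.993) for BMP7. For the ID genes they were ACBD7 (0.958) and MSRB1 (0.958) for ID1, SKA2 (0.985) and SCRIB (0.98) for ID2, ZNHIT1 (0.963) and SNCG (0.95) for ID3, and COX17 (0.984) and GMNN (0.979) for ID4. No member of the 9 was among the most similar genes of another. The 15 points share groups and the shift of the third libraries, so these values describe these libraries only.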

How the data were processed

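RNA of 15 NTERA2 libraries was measured, 3 for each of 5 siRNAs. Reads of 100 bp in pairs were aligned with STAR to GRCh37 and counted with featureCounts, with SAMtools also listed, per the submitters' processing notes. Their versions, the annotation and the strand setting are not given in the sources used here. Raw counts were deposited as whole reads per gene symbol. The deposited normalised signal equals the count times 1 factor per library for all 9 genes, to a tolerance of 1e-06, and was not tested. Columns carry the siRNA and no replicate number, so libraries are numbered by column order only to name them.

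Counts were fitted with edgeR 4.0.16 (limma 3.58.1, R 4.3.3) over all 15 libraries, with filterByExpr, TMM factors and the quasi-likelihood F test at 10 residual degrees of freedom, and Benjamini-Hochberg adjustment over 18760 genes at 0.05. The standard error is the log2 difference divided by the square root of F. Log2 CPM used a prior count of 2. The script was tested on simulated data. Alternatives were DESeq2 1.42.0, its size factors, no filter, only the groups compared, 1 library left out, the third libraries left out, and the third siControl library as the only control. Summing the first and second libraries was added after seeing the data. The 9 genes and the lists were chosen with earlier results of these data known.

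All 9 genes are named in every comparison. Of each pathway list the text names up to 4 called genes with the smallest p in a comparison with siControl, or genes with the highest mean where none passed. Among these, 1 called gene is not reported here.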

Additional observations from a re-analysis of the deposited data

How the results depend on the processing

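MSX1 was lower in siIQGAP3 than in siControl, past the threshold, under every alternative except the one that summed the first and second libraries of each group (log2 difference -2.74, adjusted p 0.0574), which left 10 called genes in all. Its log2 difference ran from -2.91 to -2.70. MSX2 lost its call there (-1.86, adjusted p 0.211) and with the third siControl library as the only control (-1.01, adjusted p 0.308). Summing was chosen after seeing the data, and it leaves 2 samples a group. With DESeq2 size factors every count of calls stayed within 1.5 times. No paired analysis was possible because the columns carry no replicate number.

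Counts of the 9 genes called were as follows. Without the third libraries, where the test rests on libraries that are nearly alike and 48.9% to 80.6% of all genes passed against siControl, 6, 9, 7 and 8 genes passed in siIGF2BP1, siSRF, siFOXM1 and siIQGAP3. Between knockdowns 1 passed in siIGF2BP1 against siSRF, 7 against siFOXM1 and 8 against siIQGAP3, 9 in siSRF against siFOXM1 and 7 against siIQGAP3, and 9 in siFOXM1 against siIQGAP3, where 1.39%, 53.4%, 80.9%, 56.5%, 80.4% and 76% of all genes passed. With the third siControl library as the only control the counts were 3, 2, 1 and 1, where 39.8%, 33.9%, 28.6% and 10.8% of all genes passed. DESeq2 gave 1 in siSRF against siControl (5.6% of all genes) and 4 in siIGF2BP1 against siIQGAP3 (49.1%). With only the 2 groups in the fit 4 passed in siIQGAP3 against siControl, and 8 and 5 passed in siIGF2BP1 and siFOXM1 against siIQGAP3 (20.7%, 68.6% and 61.6% of all genes). With the first and second libraries summed the counts were 0 in siIQGAP3 against siControl, and 1, 0 and 0 in siIGF2BP1, siSRF and siFOXM1 against siIQGAP3 (0.0513%, 0.523%, 0.0205% and 0.0103% of all genes). Leaving out 1 library gave 0 to 2 in siSRF against siControl (0.54% to 6.71% of all genes) and 0 to 1 in siSRF against siFOXM1 (0.00524% to 0.92%). Against siIQGAP3 it gave 2 to 5 in siIGF2BP1 (36.7% to 46.7%) and 2 to 6 in siSRF (29.7% to 50.7%).

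Of the 58 pathway genes, 41, 45, 38 and 50 passed in siIGF2BP1, siSRF, siFOXM1 and siIQGAP3 without the third libraries (48.9%, 54.2%, 52.9% and 80.6% of all genes), and 33, 29, 27 and 10 with the third siControl library as the only control (39.8%, 33.9%, 28.6% and 10.8%). DESeq2 gave 6, 7 and 5 in the first 3 of these (5.52%, 5.6% and 4.38%). With only the 2 groups in the fit the counts were 0, 0, 0 and 19 (0.0228%, 0.00569%, 0.0395% and 20.7%), with the first and second libraries summed 0 in each, and with no filter on low counts 1 in siSRF (1.01%). Leaving out 1 library gave 0 to 4, 0 to 8, 0 to 9 and 17 to 42. The shares of all genes there were 0.351% to 3.05%, 0.54% to 6.71%, 0.357% to 8.16% and 18.5% to 56.5%.

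Signs turned for values that had not passed in the edgeR fit over 15 libraries, except for the 3 pathway genes named last. Without the third libraries, log2 differences from siControl with the opposite sign were -0.22 for BMP2 and -0.136 for BMP7 in siIGF2BP1, -0.359 for BMP2 in siSRF, 0.0543 for ID1 in siFOXM1 and -0.0155 for ID3 in siIQGAP3. With the third siControl library as the only control they were 0.137 for BMP4 and -0.56 for ID4 in siIGF2BP1, 1.17 for BMP7 and -0.62 for ID4 in siSRF, and 1.02 for BMP7, 0.243 for ID2 and -0.991 for ID4 in siFOXM1. In siIQGAP3 they were 0.485 for BMP2, 0.453 for BMP7, 0.107 for ID2, -0.153 for ID4, 0.0969 for SMAD9, 0.364 for TCF12 and 0.613 for TCF4. With the first and second libraries summed they were -0.037 for ID1 and -0.171 for ID4 in siIGF2BP1, 0.0721 for BMP7 and -0.246 for ID4 in siSRF, and 0.00209 for BMP7, 0.0123 for ID2 and -0.21 for ID4 in siFOXM1. BMP7 in siSRF was 0.00677 with no filter, and ID4 in siFOXM1 was -0.000322 with DESeq2 size factors. Leaving out 1 library, values crossed 0 in siIGF2BP1 for BMP4 (-0.319 to 0.0708), BMP7 (-0.204 to 0.405) and ID1 (-0.0457 to 0.286). In siSRF they did so for BMP2 (-0.112 to 0.34), BMP7 (-0.36 to 0.249) and ID4 (-0.0119 to 1.49). In siFOXM1 they did so for BMP7 (-0.526 to 0.097), ID1 (-0.356 to 0.068), ID2 (-0.179 to 0.0541) and ID4 (-0.382 to 1.1). The cause of these shifts was not tested. Counting error was not separated from the spread between libraries.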
